A study of Macaca fascicularis and Macaca mulatta and Papio anubis with 20 samples.

Results

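Peptidergic spots were the 563 capture spots richest in TAC1 and CALCA among 11090 well-covered tissue spots of *Macaca fascicularis* dorsal root ganglia, which house the cell bodies of sensory neurons. Each was a tissue spot with at least 1000 UMIs (unique molecular identifiers, each counting 1 captured transcript). The spots were chosen by a measured score, the UMIs of TAC1 and CALCA per 10000 UMIs of the spot, which lay above 0 and at or above the 95th percentile of its own section. These spots are called class A, and the other 10527 spots that met the same coverage minimum are class B. The *M. fascicularis* sections held 21897 tissue spots, of 32952 over the 19 sections of all labelled species that came with spot counts.

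The sections were cut at 10 µm and lay 100 µm apart, from fresh frozen ganglia, and were measured by Visium, which captures polyadenylated RNA on a slide of barcoded spots. Each spot can cover parts of several cells, and fewer cells of a type in a spot cannot be told apart from less RNA per cell. The 15 sections used came under 4 title codes: a female and a male code of batch 1 and a female code of batch 2 with 4 sections each, and a male code of batch 2 with 3 sections (its section 3 was not analysed here as spots). The labels name no treatment, genotype or age and do not say whether a title code is 1 animal or 1 ganglion, so errors over the 4 codes measure only the spread between these codes.

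Peptidergic nociceptors are small sensory neurons that signal pain, heat and itch and release neuropeptides from their endings. TAC1 encodes the precursor of substance P, and CALCA encodes the α form of calcitonin gene-related peptide (CGRP). In the textbook scheme these neurons often carry the heat channel TRPV1, while large myelinated mechanosensory and proprioceptive neurons carry heavy neurofilament and parvalbumin. Peptides are stored in dense-core vesicles together with granins and are cut from their precursors by convertases.

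The markers that chose the spots are given as a description, without a test. The score that separated the classes differed between sections, from 30.5 to 62.9 UMIs per 10000. In the section with the lowest limit (section 2 of the male code of batch 1), the lowest class A score was 30.53 and the highest class B score 30.47. In the one with the highest (section 3 of that code), they were 63.2 and 62.6. A spot of class A held at least 4 UMIs of the pair, with a median of 11 to 58.5 over sections.

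TAC1 (ENSMFAG00000000287) stood at 2612 to 7207 CPM (UMIs scaled to a total of 1000000 per summed class) in class A over the 15 sections, with a median of 4718. In class B it stood at 276 to 1182 CPM, with a median of 712. CALCA (ENSMFAG00000041791) stood at 1299 to 2730 CPM in class A, with a median of 1942, and at 240 to 552 CPM in class B, with a median of 384. Class A, about 5% of the spots by construction, held 19.9% to 38.3% of the pair's UMIs in a section and 4.38% to 7.54% of all UMIs. Neither marker was confined to class A, since 61.6% to 97.3% of class B spots in a section held at least 1 UMI of the pair.

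Both markers occurred together in class A. Of the 563 spots, 538 held UMIs of both genes, 25 held TAC1 without CALCA, and 0 held CALCA without TAC1. With each spot thinned to 1000 UMIs before the choice, 115 of 660 class A spots held TAC1 without CALCA and 5 held CALCA without TAC1, so these counts depend on depth. TAC1 made up 57.1% to 79.7% of the pair's UMIs in class A, with the 4 lowest sections all from the female code of batch 2 (58.5% ± 1.01, SD over 4 sections). In that female code TAC1 was at 3358 CPM in class A, against 4944, 5523 and 4814 in the female and male codes of batch 1 and the male code of batch 2. CALCA was highest there, at 2374 CPM against 1994, 1927 and 2271. When the 95th percentile was taken for each gene alone, the TAC1 spots and the CALCA spots (563 each) had 229 in common. Across all spots of a section with at least 1000 UMIs, the rank correlation of the TAC1 and CALCA shares was 0.153 to 0.552 (270 to 1222 spots a section). Spots of a section share a library and their shares share the UMI total, so this is a description.

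**Figure D1:**
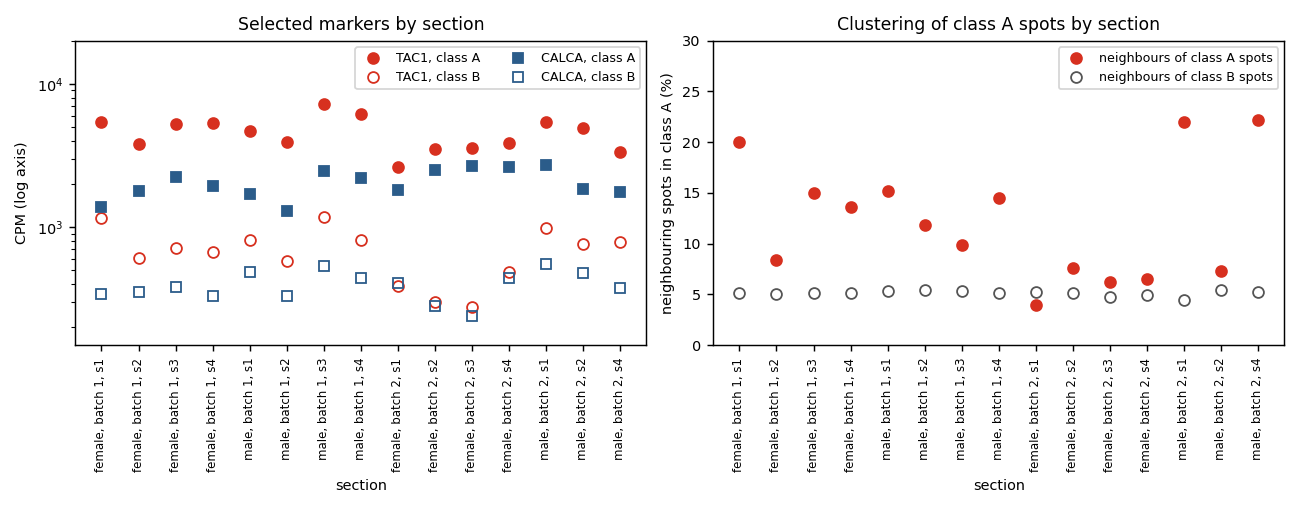
Left, TAC1 and CALCA in CPM (log axis) for class A (filled) and class B (open) in each of 15 sections; right, the percentage of neighbouring spots that were class A, for class A and class B spots. Class A lies above class B in TAC1 and CALCA in 15 sections, as its choice fixes, and 4% to 22.2% of its neighbours were class A.

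Class A spots were scattered through the ganglion, and most had no other class A spot beside them. Of the 563, 323 touched no class A spot, 36.6% to 85.2% of those in a section. Among the up to 6 neighbours of a class A spot with at least 1000 UMIs, 4% to 22.2% were class A (median 11.9%), against 4.42% to 5.43% of the neighbours of class B spots. This share was lowest in the female code of batch 2 (6.08% ± 1.5, SD over 4 sections), next to 14.3% ± 4.77 and 12.8% ± 2.42 in the codes of batch 1 and 17.2% ± 8.56 (n = 3) in the male code of batch 2. In 1 section, section 1 of the female code of batch 2, it was 4%, below the 5.22% of class B spots there.

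**Figure D2:**
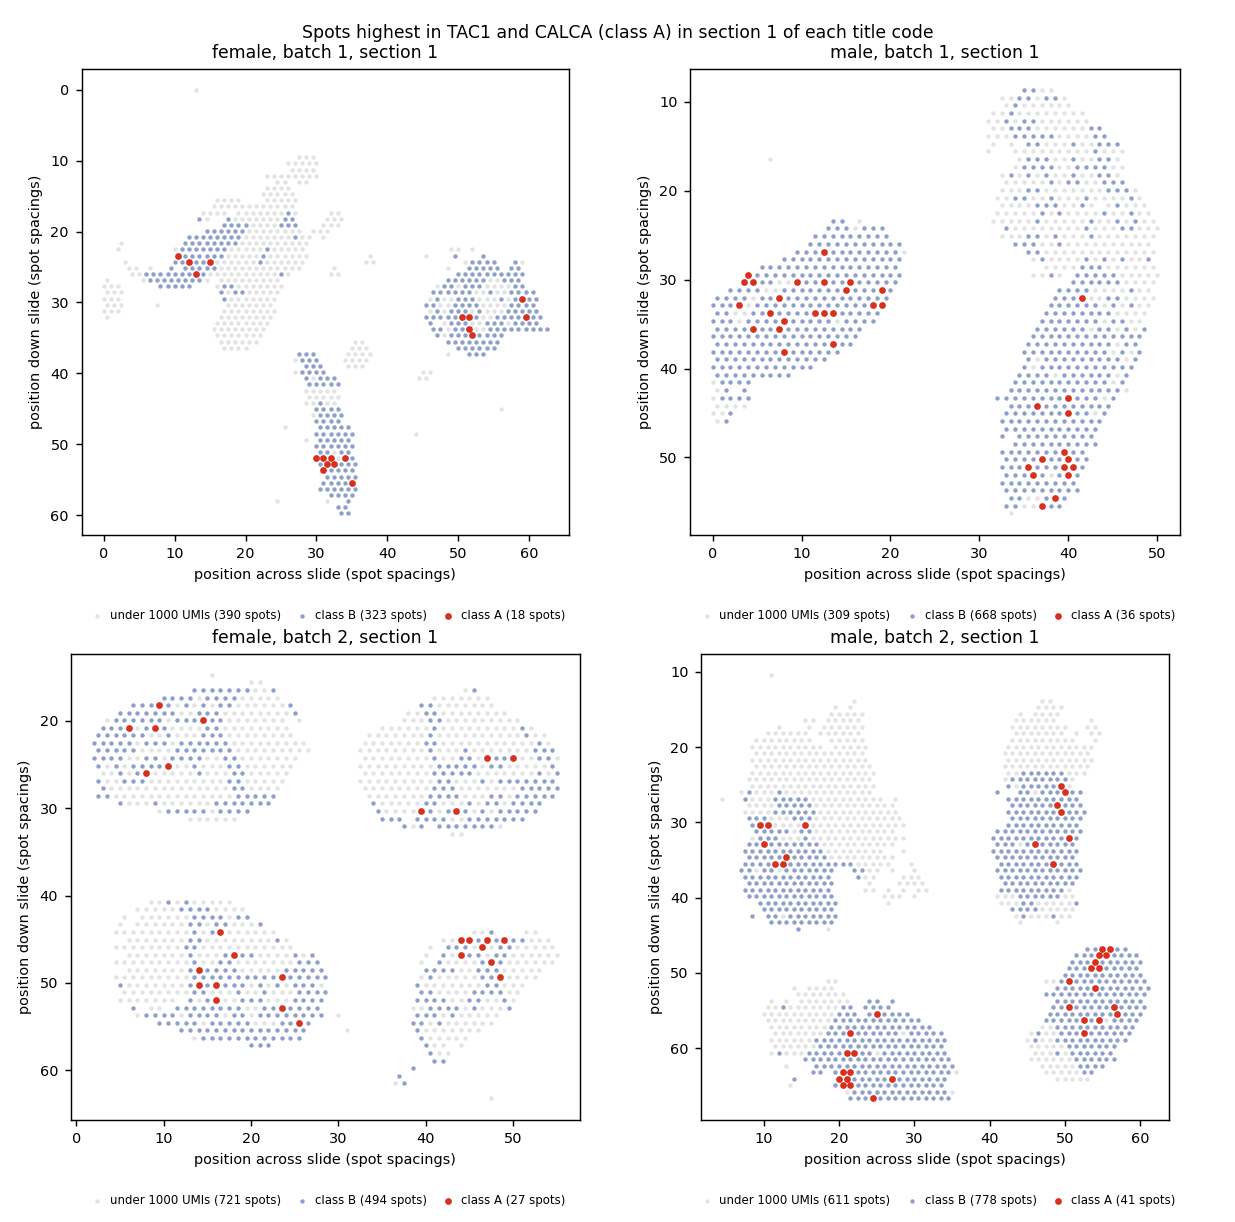
Tissue spots of section 1 of each title code, placed by their position on the slide in units of spot spacing; class A in red, class B in blue, spots under 1000 UMIs in grey. The 4 sections hold 18, 36, 27 and 41 class A spots, in small groups and as single spots.

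The markers fell off within 1 spot. TAC1 averaged 4660 ± 921 CPM in class A (SD over 4 codes, as below), 914 ± 313 in class B spots next to it, and 543 ± 209 in those at least 4 spots away. CALCA went from 2141 ± 215 to 512 ± 61.9 and 335 ± 115 CPM. The choice of class A fixes the drop for this pair. The genes set beside it were not used in the choice, but are among the highest fold changes of class A over class B. A drop into class B spots was thus built into their selection too, and their values are a description. SCG2, a granin of dense-core vesicles, went from 815 ± 241 CPM in class A to 220 ± 72.2 in adjacent spots and 144 ± 38.7 at least 4 spots away. SCRG1, a small secreted protein, was at 115 ± 27.0 CPM in class A, 17.3 ± 5.50 in adjacent spots and 13.2 ± 2.28 farther off. TRPV1, the heat- and capsaicin-gated channel, was at 244 ± 92.4, 85.6 ± 22.8 and 58.9 ± 8.75 CPM. For these genes the levels in adjacent spots were much closer to those of distant spots than to those of class A. Genes lower in class A differed in this. The means of the fibroblast genes DCN (198 ± 121.5, 234 ± 133 and 589 ± 469 CPM) and MGP (8.91 ± 4.36, 13.6 ± 5.42 and 88.4 ± 67.7) in adjacent spots were nearer to class A. That of PVALB (164 ± 54.9, 351 ± 110 and 447 ± 142) was nearer to distant spots.

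**Figure D3:**
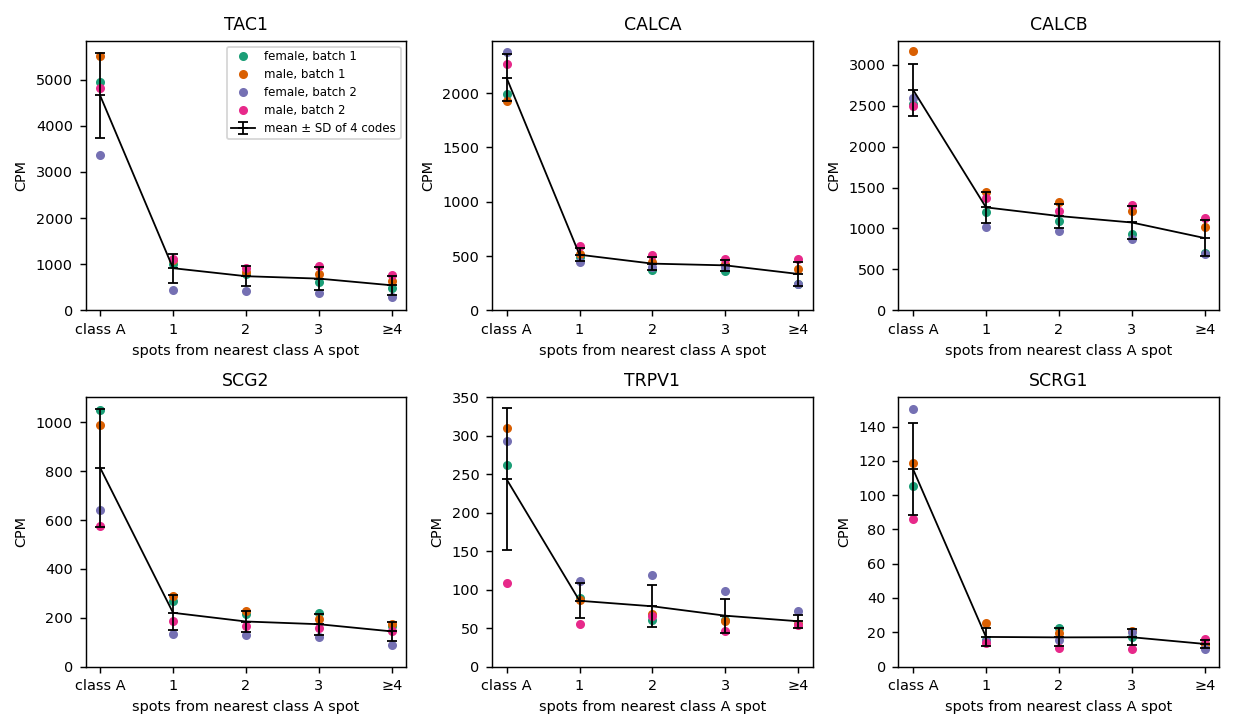
CPM of 6 genes in class A and in class B spots 1, 2, 3 and at least 4 spots from the nearest class A spot; points are title codes, the line is their mean and the bars the SD (n = 4). TAC1 falls from 4660 to 914 CPM and SCRG1 from 115 to 17.3 CPM within 1 spot.

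The authors' deposited table gives Moran's I, which is high where adjacent spots have similar levels, for each gene in 16 sections. In the authors' deposited table, TAC1 had a median I of 0.214 and an adjusted p under 0.05 in 16 of 16 sections, and CALCA a median of 0.133 with 15 of 16. CALCB reached a median of 0.235 in the authors' deposited table, and its rank among all genes ran from 1 to 907 over sections (median 28.5). NEFH, heavy neurofilament (median 0.283), and PRPH, peripherin (0.306), were higher in the authors' deposited table. SCG2 (0.0898, 14 of 16 sections) and TRPV1 (0.0334, 11 of 16) were lower in the authors' deposited table. SCRG1 had a median I of 0.00346 there, with 1 of 16 sections under 0.05 in the authors' deposited table.

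Class A spots were much deeper than class B spots in some sections and not in others, and were hardly richer in neuronal genes as a whole. Median UMIs were 6364 in class A and 2840 in class B in section 4 of the female code of batch 1. In section 1 of the male code of batch 2 they were 2970 and 3138. Median UMIs per spot ran from 1749 to 10999 over sections in class A (median 4513) and from 1625.5 to 8720 in class B (median 3556), and genes per spot had medians of 2035 and 1861. The summed level of 13 pan-neuronal genes, STMN2 and TUBB3 among them, was higher in class A in 12 of 15 sections and in 4 of 4 codes. The log2 difference of the sum was 0.09 ± 0.05 (SD over 4 codes). With each spot thinned to 1000 UMIs before the choice of class A it was 0.16. Not all members rose, and neither STMN2 nor TUBB3 was among the 5 called higher below. STMN2 averaged 2736 ± 375.5 CPM in class A and 2875 ± 523 in adjacent class B spots. With 4 codes, an exact sign-flip permutation test cannot give a two-sided p below 1 in 8, so list sums are given as values. Of the 563 class A spots, 195 lay at or above the 75th percentile of their section in the pan-neuronal share (15.2% to 57.1% of class A in a section), as did 2583 of the 10527 class B spots.

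To ask what else the spots held, counts were summed per title code and class, and every gene except TAC1 and CALCA was tested with edgeR's quasi-likelihood test, with the title code as a block and Benjamini-Hochberg adjustment. Of 9991 genes tested, 994 had an adjusted p under 0.05 (9.95%), 461 higher in class A (4.61%) and 533 lower (5.33%). Without the female or the male code of batch 1 the count was 484 or 487, and in batch 2 alone it was 214, against 1089 in batch 1 alone. With each spot thinned to 1000 UMIs before the choice of classes 296 genes were called, and with DESeq2 432. Genes of large-fibre neurons (6 of 8 tested), fibroblasts (9 of 9) and smooth muscle (4 of 4) were lower in class A, while 5 of 12 genes of peptide processing and 4 of 10 growth factor and cytokine receptors were higher. The pair sets the class and the UMI total of the spot divides the score, so gains and losses here are shares of a spot's RNA.

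Among the 15 highest fold changes were genes of peptide secretion, channels and growth factor signalling. SCG2 (ENSMFAG00000060822) was at 1052, 991, 640 and 576 CPM in class A, for the female and male codes of batch 1 and then of batch 2, against 214, 220, 112 and 160 in class B. The 4 class A values lay above all class B values, and SCG2 was higher in 15 of 15 sections. Its log2 fold change was 2.23 ± 0.09 (SE; edgeR adjusted p = 1.81e-22). SCRG1 (ENSMFAG00000038499) had the largest fold change of the named genes, with 106, 119, 150 and 86.0 CPM in class A, in the same order of codes, and 16.8, 19.2, 14.1 and 13.5 in class B. Its log2 fold change was 2.87 ± 0.13 (edgeR adjusted p = 3.00e-20), also with 15 of 15 sections higher. ECEL1, a membrane metallopeptidase expressed in neurons, had a log2 fold change of 2.85 ± 0.26 (edgeR adjusted p = 4.68e-11) at a lower level, 36.8 ± 15.7 against 5.03 ± 5.08 CPM (SD, n = 4).

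TRPV1 (ENSMFAG00000040334) was at 262, 311, 294 and 108 CPM in class A and at 66.5, 66.9, 94.1 and 55.1 in class B. All 15 sections were higher in class A, though the male code of batch 2 rose least. The log2 fold change was 1.86 ± 0.10 (edgeR adjusted p = 6.58e-18). TRPA1, the channel for irritants, had a like fold change (log2 1.91 ± 0.30; edgeR adjusted p = 1.25e-05), but at 15.8 ± 12.4 CPM in class A against 4.03 ± 4.04, and the codes of the 2 classes overlapped. GFRA3, the co-receptor for artemin, was at 142, 164, 237 and 146 CPM in class A against 44.7, 43.7, 60.0 and 75.3 in class B (log2 1.75 ± 0.10; edgeR adjusted p = 1.49e-16). PROKR2, a receptor for prokineticins, was at 41.8 ± 17.3 against 9.46 ± 4.26 CPM (log2 2.18 ± 0.17).

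The other 8 genes of this group had log2 fold changes between 1.74 and 2.56. EDN3, the endothelin-3 precursor, rose by 1.77 ± 0.17, and KCNC2, a Kv3 potassium channel subunit, by 1.74 ± 0.17. CAMK4, a calcium/calmodulin-dependent kinase, rose by 1.99 ± 0.23 and RBM38, an RNA-binding protein, by 1.82 ± 0.17. SCGN, the calcium-binding protein secretagogin, rose by 2.56 ± 0.29, with 58.1 CPM in class A of the female code of batch 2 and 6.54 to 15 in the other codes. SERPINB2 (2.39), TMEM255B (1.99) and SLC7A4 (1.84) completed the group. 1 feature without a symbol in the files, ENSMFAG00000001933, was singled out after its values were seen: it was at 541, 520, 1385 and 367 CPM in class A and 84.6, 98.2, 154 and 155 in class B (log2 2.51 ± 0.13; edgeR adjusted p = 6.58e-18).

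**Figure D4:**
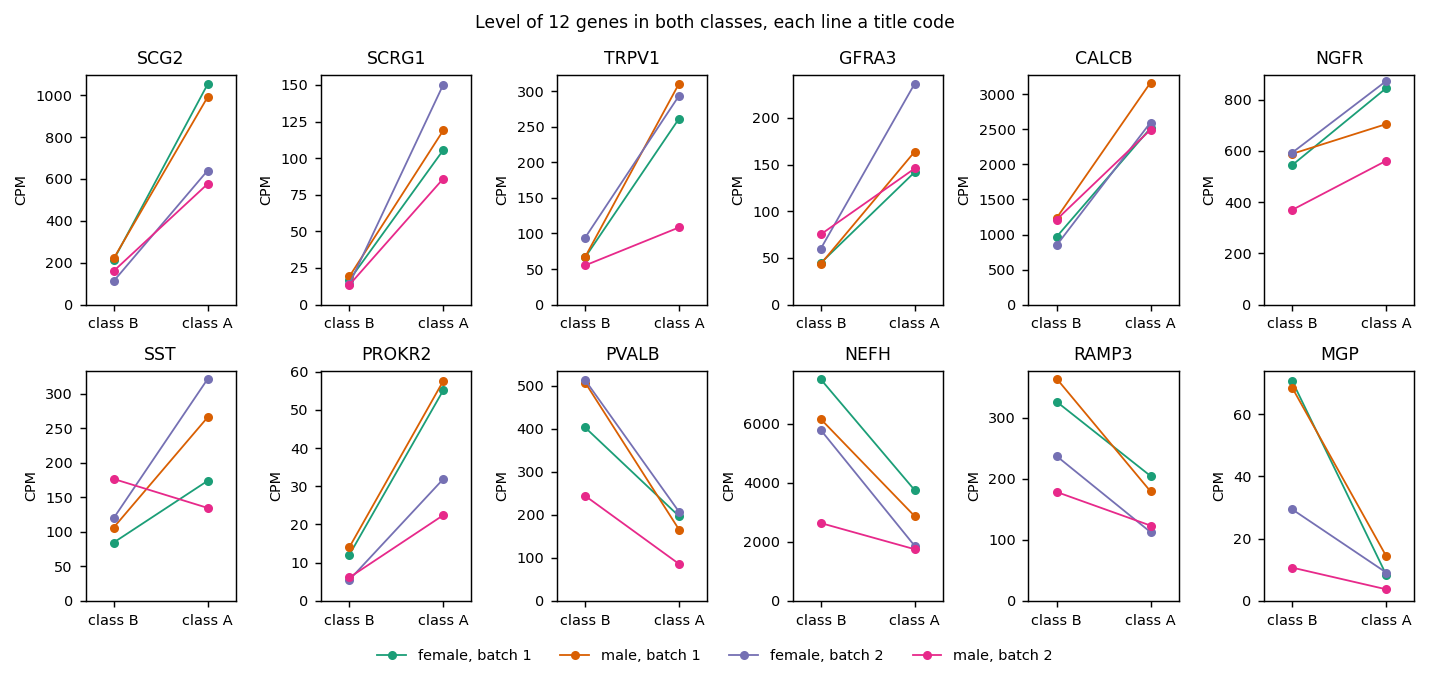
CPM of 12 genes in class B and class A, each line joining the 2 classes of a title code (n = 4 codes). SCG2, SCRG1, TRPV1, GFRA3, CALCB, NGFR and PROKR2 rise and PVALB, NEFH, RAMP3 and MGP fall in 4 of 4 codes, while SST rises in 3 codes and falls in the male code of batch 2.

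Among other neuropeptides, 3 of 6 tested genes were higher and 1 was lower in class A, with a median log2 difference of 0.55 against -0.01 over all genes tested. CALCB (ENSMFAG00000054288), which encodes the β form of CGRP, was at 2519, 3168, 2599 and 2495 CPM in class A and 968, 1235, 846 and 1213 in class B (log2 1.35 ± 0.08; edgeR adjusted p = 1.70e-16). CALCB and CALCA are close paralogs, so reads could have been assigned to either, and how the counting treated this is not given in the sources used here. SST, somatostatin, was higher in class A in 3 codes but lower in the male code of batch 2 (135 against 177 CPM). Sections of the male code of batch 1 differed. SST was higher in its sections 1 and 2 (443 against 157 and 612 against 149.5 CPM). It was lower in sections 3 and 4 (61.9 against 66.8 and 42.6 against 72.6). The log2 fold change of SST over the codes was 1.06 ± 0.12 (edgeR adjusted p = 1.12e-08). CCK, cholecystokinin, was also higher in 3 codes and lower in the male code of batch 2 (18.7 against 27.6 CPM), with a log2 fold change of 1.06 ± 0.17. NMU, neuromedin U, was lower (log2 -1.25 ± 0.29; edgeR adjusted p = 0.00238), though not with spots thinned to 1000 UMIs, where its log2 difference was 0.34, and the call was lost without the female code of batch 1. ADCYAP1, the PACAP precursor, did not pass the count filter, with 19 UMIs in class A and 123 in class B.

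Of 12 tested genes of peptide processing and dense-core vesicles, 5 were higher and 1 was lower, with a median log2 difference of 0.28. Beside SCG2, the granin SCG3 rose by 0.62 ± 0.08 (986 ± 108 against 654 ± 131 CPM) and SYT4, a synaptotagmin of dense-core vesicles, by 0.60 ± 0.08. PTPRN, a membrane protein of these vesicles, rose by 0.40 ± 0.08, a call lost without either code of batch 1. PCSK1, the prohormone convertase 1, rose by 0.85 ± 0.24 (edgeR adjusted p = 0.0151), a call that was lost without the female code of batch 1, the male code of batch 1 or the female code of batch 2. CHGA, chromogranin A, fell by 0.70 on the log2 scale (67.7 ± 30.5 against 122 ± 13.8 CPM), so granins did not move together.

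Receptors for these peptides were hardly captured. Of 12 matched genes 3 could be tested. All 3 had a negative log2 difference (median -0.43) and an unadjusted p under 0.05 in edgeR, and 1 was called lower. The called gene was RAMP3, a subunit that turns calcitonin-family receptors towards adrenomedullin binding. It was at 155 ± 44.1 CPM in class A and 276 ± 84.2 in class B, lower in 15 of 15 sections (log2 -0.87 ± 0.09, edgeR adjusted p = 3.67e-09). CALCRL, the main CGRP receptor subunit, had 0 UMIs in class A and 6 in class B. TACR1, the substance P receptor, had 0 UMIs in both.

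Of 9 tested nociceptor channels, TRPV1 and TRPA1 were higher and PIEZO2, the touch channel, was lower (26.9 ± 8.65 against 44.3 ± 7.30 CPM; log2 -0.68 ± 0.18; edgeR adjusted p = 0.00974). The PIEZO2 call was lost without the male code of batch 1 or the female code of batch 2, and its difference was 0.02 with thinned spots. SCN11A, the sodium channel Nav1.9, was at 329 ± 106 and 344 ± 131 CPM (log2 -0.08 ± 0.08; edgeR adjusted p = 0.671). SCN10A, the sodium channel Nav1.8, did not pass the count filter, with 12 UMIs in class A and 197 in class B.

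Of 10 tested growth factor and cytokine receptors, 4 were higher and 0 lower by the same edgeR test, with 7 at an unadjusted p under 0.05 and a median log2 difference of -0.02. Besides GFRA3, these included NGFR, the low-affinity neurotrophin receptor, and KIT, the receptor for stem cell factor. NGFR was at 844.5, 704, 872 and 561 CPM in class A against 544.5, 588, 593 and 370 in class B, higher in 15 of 15 sections (log2 0.50 ± 0.08; edgeR adjusted p = 8.95e-06). KIT was higher in 13 of 15 (log2 0.79 ± 0.16). Of 4 tested receptors that pain drugs target, 0 were called in edgeR and 1 had an unadjusted p under 0.05. OPRM1, the µ opioid receptor, had 2 UMIs in class A and 6 in class B. Of 4 tested lineage transcription factors TLX3 was higher (138 ± 7.45 against 107 ± 8.18 CPM; log2 0.36 ± 0.09) and ETV1 lower (log2 -0.71 ± 0.22; edgeR adjusted p = 0.0266). Both calls were lost without the male code of batch 1, and that of ETV1 also without the female code of batch 2.

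Genes of large-fibre neurons were lower in class A, 6 of 8 tested and 0 higher, with a median log2 difference of -0.78. PVALB, parvalbumin, was at 197, 166, 207 and 86.0 CPM in class A and 403, 508, 513 and 244 in class B (log2 -1.33 ± 0.10; edgeR adjusted p = 6.77e-14), without overlap between the codes of the classes. NEFH, heavy neurofilament, was lower in 15 of 15 sections, at 2557 ± 940 against 5520 ± 2059 CPM (log2 -1.11 ± 0.09). VSNL1, a neuronal calcium sensor, fell by 1.18 on the log2 scale, SPP1, osteopontin, by 0.85 and KCNS3, a potassium channel subunit, by 0.49, a call lost without the female code of batch 1. Of 8 tested genes of non-peptidergic and itch neurons, 1 was higher, SST, and 0 were lower.

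The pan-neuronal genes did not move as a block. Of 13 tested, 5 were higher: GAP43 (log2 0.69), STMN4 (0.88), INA, the internexin α neurofilament (0.66), THY1 (0.26) and PRPH, peripherin (0.23). The calls of THY1 and PRPH were lost without either code of batch 1, and that of PRPH also without the female code of batch 2. SNAP25, of the synaptic fusion complex, was lower by 0.47 on the log2 scale (1065 ± 142 against 1473 ± 297 CPM) and NSG1, an endosomal protein of neurons, by 1.19 (132 ± 31.6 against 282 ± 96.8 CPM).

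Markers of connective tissue and vessels were lower. Of fibroblast genes 9 of 9 tested were lower, with a median log2 difference of -0.93. MGP, matrix Gla protein, was at 8.41, 14.4, 9.11 and 3.74 CPM in class A and 70.5, 68.4, 29.4 and 10.7 in class B (log2 -2.39 ± 0.21; edgeR adjusted p = 1.58e-11), lower in 15 of 15 sections. DCN, decorin, fell by 0.93 on the log2 scale and APOD by 0.44. Of smooth muscle genes 4 of 4 tested were lower, with ACTA2 at 10.3 ± 7.70 against 42.1 ± 36.2 CPM (log2 -1.97 ± 0.21) and TAGLN at 45.7 ± 14.6 against 101 ± 30.6. In the same order of codes, the summed level of all 10 fibroblast markers was 3407, 2850, 1751 and 883 CPM in class A. In class B it was 5538, 4207, 2111 and 1295. APOD is a large part of this sum in batch 2. Over sections of the female code it was at 1132 to 1930 CPM in class A and 1516 to 2104 in class B. Over those of the male code it was at 687 to 939 and 992 to 1535. The summed level of all 7 smooth muscle markers was 134, 120, 122 and 97.3 against 401, 353, 170 and 111 CPM. By the interaction of class with batch, 8 of 9 fibroblast and 4 of 4 smooth muscle genes were shifted upwards in batch 2 (median log2 0.83 and 1.11). Of these lists 1 and 3 genes had an unadjusted p under 0.05 in edgeR, and 0 were called. The part of fibroblast and smooth muscle content in the other differences was not tested.

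Of myelinating Schwann cell genes 5 of 9 tested were lower and 0 higher, with a summed level of 1576 to 3058 CPM in class A and 1255 to 4422 in class B, lower in class A in both codes of batch 1 and higher in both of batch 2. Of endothelial genes 2 of 5 were lower (adjusted p = 0.0496 and 0.0492 for VWF and CDH5 in edgeR). Of 8 tested satellite glia genes and 10 immune genes, 0 were called in edgeR. Their median log2 differences were -0.07 and -0.16, and 1 gene of each list had an unadjusted p under 0.05. FABP7, a satellite glia marker, was at 149 ± 41.8 CPM in class A and 145 ± 46.9 in class B. Of 6 tested injury and immediate early genes FOS was lower (log2 -0.40; edgeR adjusted p = 0.0214), in both codes of batch 1 but not in those of batch 2.

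The 10 lowest fold changes named by rule also held other genes, most at low level. NTNG1, netrin-G1, was at 9.32 ± 4.93 CPM in class A and 25 ± 7.70 in class B (log2 -1.71 ± 0.26). FGF11, an intracellular growth factor homolog (log2 -1.74 ± 0.26), PTH1R, the parathyroid hormone receptor (-1.64 ± 0.26), SYT12 (-1.82 ± 0.35), LGI2 (-1.73 ± 0.34), RIMKLA (-1.76 ± 0.35) and CCDC172 (-1.89 ± 0.38) were lower in 13 to 15 of 15 sections. PLA2G2A, a secreted phospholipase, had 150 and 95.9 CPM in class B of the batch 2 codes but 0.815 and 1.51 in those of batch 1 (log2 -1.65 ± 0.21).

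SCG2 was detected in 83.5% ± 10.9 of class A spots (SD over 4 codes) and 39.6% ± 9.57 of class B spots. It was also found in 22.1% ± 4.85 of the class B spots poorest in pan-neuronal genes (at or below their section's 25th percentile). These neuron-poor spots were not free of neuronal RNA: NEFH was detected in 91.9% ± 1.82 of them, TAC1 in 51.2% ± 18.0 and PVALB in 32.4% ± 6.20. With the same spots thinned to 1000 UMIs after the choice of classes, SCG2 was in 51.1% ± 11 of class A, 14.6% ± 4.04 of class B and 11.2% ± 2.95 of neuron-poor spots. SCRG1 was in 33.7% ± 10.9 of class A spots, 6.87% ± 2.15 of class B and 3.46% ± 1.71 of the neuron-poor spots (thinned, 9.82% ± 2.66, 1.80% ± 0.53 and 1.48% ± 0.83). TRPV1 was in 54.0% ± 23.6, 21.7% ± 6.30 and 9.62% ± 2.65 (thinned, 19.6% ± 5.84, 5.97% ± 1.06 and 4.34% ± 1.49). Class A was above class B in 4 of 4 codes for these 3 genes, thinned or not. NEFH, lower in class A by its CPM, was detected in 96.8% of class A and 96.2% of class B spots, and in 82.6% and 87.6% with thinned spots. PVALB was detected in 39.7% and 45.1% of the spots, with class A above class B in the female code of batch 1 (55.5% against 48.8%), and in 13.6% and 22.0% with thinned spots.

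To set neuron-rich spots of both classes side by side, the test was repeated on spots at or above their section's 75th percentile of the pan-neuronal share, 195 of class A and 2583 of class B. Of 7901 genes tested, 360 were called (4.56%), 195 higher (2.47%) and 165 lower (2.09%) in class A. Of 11 tested genes of peptide processing 4 were higher, and of 6 growth factor receptors 4 were higher and 1 was lower. Of the tested genes of fibroblasts (8), Schwann cells (7), satellite glia (7), immune cells (9), smooth muscle (3) and endothelium (3), 0 were called in edgeR. Among the fibroblast genes 4 had an unadjusted p under 0.05, among the Schwann cell genes 1 and among the others 0. Without the female or the male code of batch 1 the count was 158 or 163. In batch 2 alone it was 58, and in batch 1 alone 417. It was 845 and 142 with the 50th or 90th percentile, and 158 with neurofilament genes added to the pan-neuronal list.

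SCRG1 was at 110, 139, 132 and 140 CPM in these class A spots and 13.1, 16.9, 14.7 and 17.2 in class B (log2 3.07 ± 0.16; edgeR adjusted p = 9.07e-14). ECEL1 had the highest log2 fold change, 3.13 ± 0.35, and was higher in 13 of 15 sections. SCG2 was at 902 ± 307 against 180 ± 57.0 CPM (log2 2.32 ± 0.08) and TRPV1 at 259 ± 117 against 75.6 ± 21.9 (log2 1.87 ± 0.13). RBM38 (log2 2.43), PROKR2 (2.33), TMEM255B (2.14), KCNC2 (1.98) and CAMK4 (1.94) were also among the 10 highest. SERPINB2 (2.52 ± 0.49) rested on few UMIs, was higher in 8 of 15 sections and lost its call without the female code of batch 2.

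CALCB was higher by 1.19 ± 0.08 on the log2 scale in these spots, at 2931 ± 511 against 1276 ± 199 CPM (edgeR adjusted p = 1.60e-11), and was the 1 called gene of the 4 tested neuropeptides. SST, at 131 ± 51.1 against 109 ± 36.1 CPM, did not pass (log2 0.40; edgeR adjusted p = 0.208). GFRA3 (log2 1.46), KIT (0.77) and NGFR (0.40) were higher, and GFRA2, the co-receptor for neurturin, was lower (95.2 ± 24.9 against 127 ± 33.0 CPM; log2 -0.65 ± 0.15). The KIT call was lost without either female code, the NGFR call without the female code of batch 1, and the GFRA2 call without either code of batch 1. SCG3 (0.43), SYT4 (0.54) and PTPRN (0.34) were higher, SCG3 not without the female code of batch 1 and PTPRN not without either code of that batch. CHGA did not pass, at 69.2 ± 38.0 against 102 ± 14.9 CPM (edgeR adjusted p = 0.262). TRPA1 did not pass either, at 12.4 ± 8.98 against 5.55 ± 6.25 CPM (edgeR adjusted p = 0.21).

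Of 6 tested large-fibre genes 4 were lower: NEFH (log2 -1.07 ± 0.11), VSNL1 (-1.14 ± 0.15), SPP1 (-0.85 ± 0.10) and PVALB (-0.78 ± 0.15). The PVALB and PIEZO2 calls were lost without the male code of batch 1. PIEZO2 was lower in 14 of 15 sections, at 22.2 ± 9.88 against 48.9 ± 5.2 CPM (log2 -1.22 ± 0.25; edgeR adjusted p = 0.00301), but its difference was 0.21 with thinned spots. RAMP3 was lower by 0.90 ± 0.11. Of 5 tested genes of non-peptidergic and itch neurons 3 were lower: GFRA2, SCN11A and MRGPRX1. MRGPRX1, an itch receptor, was at 9.01 ± 11.8 against 22.7 ± 6.64 CPM (log2 -1.33 ± 0.39; edgeR adjusted p = 0.0438). SCN11A was at 369 ± 108 against 473 ± 207 CPM (log2 -0.42 ± 0.11; edgeR adjusted p = 0.0218). With neurofilament genes added to the pan-neuronal list SCN11A was called higher instead (log2 0.71; edgeR adjusted p = 0.04), and its difference was 0.11 with thinned spots and 0.11 with spots chosen by CALCA alone. That of GFRA2 was 0.0197 and 0.0368 in these last settings. The SCN11A and MRGPRX1 calls were lost without either code of batch 1. The 5 lowest named genes were NTNG1 (log2 -2.29 ± 0.42), TRIM54 (-2.0 ± 0.37), LMO1 (-1.92 ± 0.42), TESC (-1.91 ± 0.41) and HOPX (-1.60 ± 0.24), and the first 4 had 8 to 11 UMIs in class A. The calls of LMO1 and TESC were lost without the female code of batch 1.

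**Figure D5:**
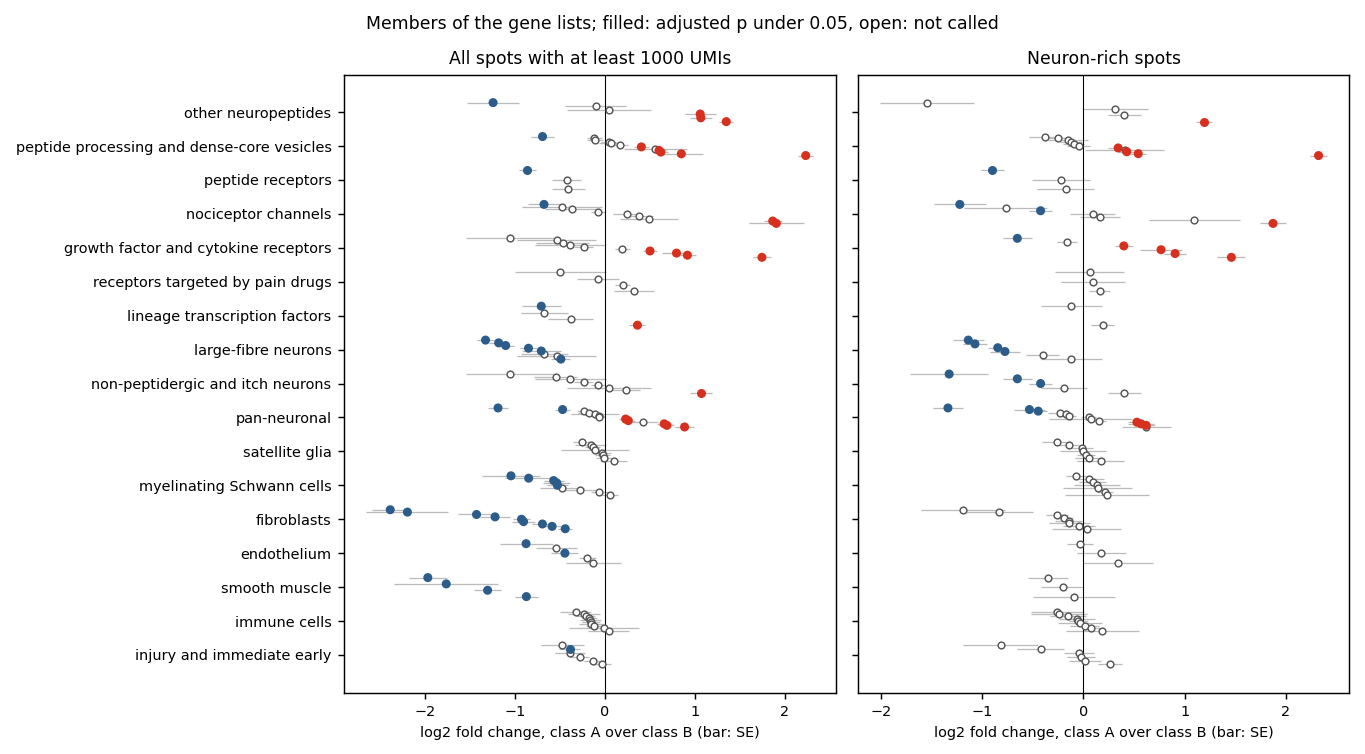
Log2 fold change of class A over class B for the tested members of each gene list, in all spots with at least 1000 UMIs (left) and in neuron-rich spots (right); bars are SE, filled points have an adjusted p under 0.05 and open points do not. Fibroblast genes are called lower at 9 of 9 on the left and at 0 of 8 on the right. On the right, with fewer spots, 1 of the 8 has a positive difference and 4 have an unadjusted p under 0.05 in edgeR. Growth factor receptors called higher number 4 in both, and 1 is called lower on the right.

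Whether spots that lean to TAC1 differ from those that lean to CALCA was asked within class A, because no spot held CALCA alone. The 275 spots above their section's median TAC1 share of the pair were set against the 288 at or below it. Of 5969 genes tested with edgeR, 2 were called (0.0335%) and 320 had an unadjusted p under 0.05; DESeq2 called 0. RBP4, retinol-binding protein 4, was at 347, 418, 281 and 351 CPM in the TAC1-leaning spots and 446, 522, 506 and 500 in the CALCA-leaning spots (log2 -0.50 ± 0.09; edgeR adjusted p = 0.00254), lower in 10 of 15 sections. Its call was lost without the female code of batch 2. The other, the unnamed ENSMFAG00000060234, was split between the codes: 65.7, 42.0, 84.6 and 104 CPM in the TAC1-leaning spots and 36.0, 132, 79.4 and 606 in the CALCA-leaning spots (log2 -0.91 ± 0.20). It was higher in the TAC1-leaning spots of both female codes and lower in those of both male codes, and its call was lost without either male code. SCG2, TRPV1, GFRA3 and CALCB had differences of -0.18, -0.20, -0.26 and -0.11, with edgeR adjusted p from 0.736 to 0.903.

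The class difference was then compared between the labelled sexes and batches, with 2 codes each, by an interaction term. For sex, 1 of 9991 genes was called (0.01%), 342 had an unadjusted p under 0.05 in edgeR, and DESeq2 called 0. The called feature was ENSMFAG00000001933, whose fitted log2 difference between the classes was larger in the female codes by 1.00 ± 0.19 (edgeR adjusted p = 0.0169). The call was lost without either code of batch 2. The female and male codes were close in batch 1 (541 and 520 CPM in class A, 84.6 and 98.2 in class B). They were far apart in batch 2 (1385 and 367 in class A, 154 and 155 in class B). For batch, 2 of 9991 were called (0.02%), and 595 had an unadjusted p under 0.05. Without either code of batch 1, 0 genes were called for batch. FBP1, a gluconeogenic enzyme and 1 of the 2, was higher in class A in batch 1 (37.4 and 32.6 against 13.6 and 13.8 CPM) and nearer to level in batch 2 (78.6 and 56.1 against 76.0 and 48.5), a difference of -1.30 ± 0.27 (edgeR adjusted p = 0.048). Batch also separates the codes and the Space Ranger versions, so these cannot be told apart.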

How the data were processed

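The deposited matrices hold UMI counts per gene and spot, made by the authors with Space Ranger 2.0.0 (batch 1) or 2.1.0 (batch 2), per the file headers. The submitters' processing notes name the build Mmul_10 with no role, while the 22000 features carry *M. fascicularis* identifiers, 15068 with a symbol. The authors' deposited tables give Moran's I as a score with a p-value per gene and section, which was only described. The members and gene lists were chosen with earlier results of these data known.

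Counts of spots in tissue with at least 1000 UMIs were summed per title code and class, between 267337 and 1070472 UMIs in class A and between 5045922 and 17269716 in class B; counting error is the precision these depths set. TAC1 and CALCA stayed out of the tests. Tests used edgeR 4.0.16 (TMM, filterByExpr, quasi-likelihood, title code as block, Benjamini-Hochberg) in R 4.3.3, with DESeq2 1.42.0 as an alternative, and were tested on simulated data. An error after ± is an SE for a fold change and otherwise an SD. Genes named are list members and, among called genes with a symbol, one direction in 4 of 4 codes and at least 10 CPM in the higher class, the 15 highest and 10 lowest fold changes (10 and 5 in neuron-rich spots, up to 5 each way within class A). The planned test of spots with TAC1 alone against CALCA alone could not be fitted, and the leaning comparison replaced it after the data were seen. Sections of a code differed beyond sampling noise in each of 21 pairs (chi-square per degree of freedom at least 3.62). Barcodes are those printed on the slides: a pair of sections shared 56 to 1622 tissue-spot barcodes. Section 3 of the male code of batch 2 entered only through the authors' deposited table. Alternatives covered normalization, filters, thinning, thresholds, left-out codes and sections, and batches alone. In the tests on thinned spots the classes were chosen again from the thinned counts, so the set of spots changed too. The thinned detection shares kept the classes chosen at full depth. Values of 2 genes are not reported here; they stay in the fits, counts and list sums.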

Additional observations from a re-analysis of the deposited data

Results flagged for a closer look

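The class difference varied between labelled groups for ENSMFAG00000001933 by sex (log2 1.00) and for FBP1 by batch (-1.30), by a test of the interaction in edgeR. Of 45 groups of 4 values searched for a value far from the rest, 4 held one, where chance gives about 1 in 20. Section 2 of the female code of batch 1 had the lowest score limit of its code, 34.7, and the lowest TAC1 level in class A, 3812 CPM (3.81e+03). The female code of batch 2 stood apart from the other codes in the summed receptors that pain drugs target, with a log2 difference between the classes of -0.07 (-0.0684), and in the genes of non-peptidergic and itch neurons, with 0.47 (0.468).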

How the results depend on the processing

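The genes named for class A against class B kept their direction in all but 8 of 1849 recomputed values and lost their call in 80. Those for neuron-rich spots turned in 6 of 1135 values, lost their call in 94 and gained it in 12. A setting in which a gene failed the count filter or had no adjusted p gave no value. Such cases count neither as kept nor as lost, so the losses can be understated. The count of calls for class A against class B (994) was 432 with DESeq2, 296 with thinned spots, 214 in batch 2 alone and 652 with class B thinned to the total of class A. It was 484 to 1039 without a code or a section. In neuron-rich spots (360) it was 153, 57, 58 and 226 in these settings, 562 with the 90th percentile of the score, 845 or 142 with the 50th or 90th percentile of the pan-neuronal share and 158 with neurofilaments, and 158 to 504 without a code or a section. With sections as samples and each section as a replicate block, the counts were 1246 and 515; section numbers share only a number between codes and pair nothing. For TAC1-leaning spots (2) it was 0 with DESeq2, 0 thinned, 4 in batch 2 alone and 3 with the replicate block, and 0 to 3 without a code or a section. By sex (1) it was 0 with DESeq2, 0 with the replicate block, 3 thinned and 0 to 8 without a code (8 without the female and 5 without the male code of batch 1) or a section. By batch (2) it was 1 with DESeq2, 14 with no filter, 27 with the replicate block, 9 thinned and 0 to 50 without a code (50 without the male and 16 without the female code of batch 2, 0 without either code of batch 1) or a section, with 23 without section 1 of the male code of batch 2. In batch 1 alone, also with 2 codes, the counts were 1089 and 417. The cause of these shifts was not tested. The pan-neuronal difference of 0.09 was 0.16 with thinned spots and 0.07 to 0.10 without a code. The share of class A neighbours, 12.7% over codes, was 11.2% to 14.8% without a code. Differences that turned sign in all spots were those of NMU (0.34), PIEZO2 (0.0243) and SCN11A (0.33) thinned, of SCN11A also without a code (-0.127 to 0.00824, the latter without the male code of batch 1), in batch 2 alone (0.0402), with the 90th percentile (0.14), by CALCA alone (0.30, where SCN11A was called) and without class B spots next to class A (0.0133). In neuron-rich spots they were GFRA2 (0.0197), PIEZO2 (0.21) and SCN11A (0.11) thinned, GFRA2 (0.0368) and SCN11A (0.11) by CALCA alone, and SCN11A with neurofilaments (0.71, called higher). FBP1 turned to 0.21 thinned. The planned comparison of spots with TAC1 alone and CALCA alone was not run with any alternative: 0 spots held CALCA alone, and with thinned spots 5 did, in 2 codes. Depth left 3 of 12 peptide receptors and 4 of 12 lineage transcription factors with enough UMIs to be tested.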
